A study of Mus musculus with 8 samples.

Results

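The genes described here are the secreted ligands, receptors, R-spondins and antagonists of Wnt signalling, with the first cytoplasmic steps of the pathway, in mouse brain with and without SIRT1. They were chosen by gene symbol alone: all probe sets whose single symbol on the platform annotation is a Wnt, Fzd, Sfrp, Dkk, Rspo, Dvl or Axin gene, Lrp5, Lrp6, Wif1, Apc or Ctnnb1. This gave 73 of the 22626 tested probe sets, which stand for 48 of 12393 genes: 19 ligands, 11 receptors and coreceptors, 2 R-spondins, 9 antagonists and 7 cytoplasmic genes. Whole brain RNA came from male C57/B6 mice aged 3 months, 4 with a brain-specific knockout of SIRT1, an NAD-dependent protein deacetylase (BSKO), and 4 wild-type littermates (WT). Labelled RNA of each mouse was read on a separate array, Affymetrix Mouse430A_2 with a single channel, and precision is limited by having 4 arrays a genotype. The driver of the deletion and the deleted part of Sirt1 are not given in the sources used here.

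Wnt proteins are lipid-modified signals that act over short distances. They bind Frizzled receptors, and in the canonical branch also the coreceptors LRP5 and LRP6, which recruits Dishevelled and stops the complex of Axin and APC from marking beta-catenin (Ctnnb1) for destruction. R-spondins raise the amount of Frizzled at the cell surface, while SFRP and WIF proteins, and DKK proteins such as DKK1, block ligand or coreceptor. In brain the pathway is known for patterning of the forebrain, growth of axons and synapses, and the vessels of the blood-brain barrier.

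The deposited values are log2 values, and each of the 73 probe sets had been centred on its own median over the 8 arrays. Such values carry contrasts among arrays but not how strongly a gene was expressed, so levels are not given and the labelled tissue could not be checked against marker levels. BSKO 2 stood apart. On that array the SD over all probe sets was 0.831, against 0.150 to 0.314 on the other 7 arrays, and over the 73 members it was 0.956 against 0.170 to 0.387. For beta-actin, the 5' minus 3' difference in centred value was -2.44 on BSKO 2 and between -0.104 and 0.489 elsewhere. The members are therefore compared over all 8 arrays and again with BSKO 2 left out. Sirt1 had values of 0.0041, -0.0041, 0.082 and 0.29 on WT 1 to 4 and of 0.076, -1.46, -0.20 and -0.059 on BSKO 1 to 4. These overlap between genotypes (difference -0.50, limma adjusted p = 0.504 over all genes), and with the deleted part not given the probe set checks nothing about the labels.

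Rspo1 was higher and Wnt5a lower in BSKO brain, and these were the members that passed the test once BSKO 2 was left out. With all 8 arrays 0 of the 73 probe sets had an adjusted p under 0.05 by limma (Benjamini-Hochberg over all probe sets), where 0.0309% of all probe sets did. At an unadjusted p under 0.05 there were 14 member probe sets, or 19.2%, beside 10.8% of all. Without BSKO 2 the test called 3 of 73, or 4.11%, beside 1.63% of all: 1 higher (Rspo1, beside 0.495% of all) and 2 lower (both probe sets of Wnt5a, beside 1.14%). Unadjusted, 22 members (30.1%) lay under 0.05 beside 19.8% of all. The 3 calls depend on single arrays: 0 were left without WT 2, 1 each without WT 1, WT 4 or BSKO 4, 2 without WT 3 or BSKO 3, and 9 were made without BSKO 1. The share of all probe sets moved along, from 0.084% without WT 2 to 0.566% without BSKO 3 and 4.72% without BSKO 1.

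Complete separation of the genotypes was as common among the members as elsewhere. No BSKO array overlapped the WT range for 9 of 73 probe sets, or 12.3%, the same share as the 12.3% of all probe sets. The higher side in BSKO held 4 of them, of Rspo1, Wnt10a, Dvl2 and Axin1 (5.67% of all probe sets were on that side), and the lower side 5, of Wnt5a, Fzd7, Fzd6, Sfrp4 and Ctnnb1 (6.66% of all). Without BSKO 2 it was 12 of 73 (16.4%), beside 19.5% of all. As means per gene, the 48 members had a median difference of 0.11 on the log2 scale with 8 arrays, beside 0.030 over all genes, and of 0.059 beside 0.015 without BSKO 2. Above 0 were 30 of 48 with 8 arrays (62.5%, beside 54.8% of all genes) and 31 without BSKO 2 (64.6%, beside 53.6%). The same test on gene means called 0 of 48 with 8 arrays (0.0726% of all genes) and, without BSKO 2, Rspo1 and Wnt5a (2 of 48, beside 2.15% of all, 0.758% higher and 1.39% lower). Unadjusted, 8 of 48 (16.7%) lay under 0.05 with 8 arrays and 15 (31.2%) without BSKO 2, beside 12.2% and 21.2% of all genes.

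**Figure D1:**
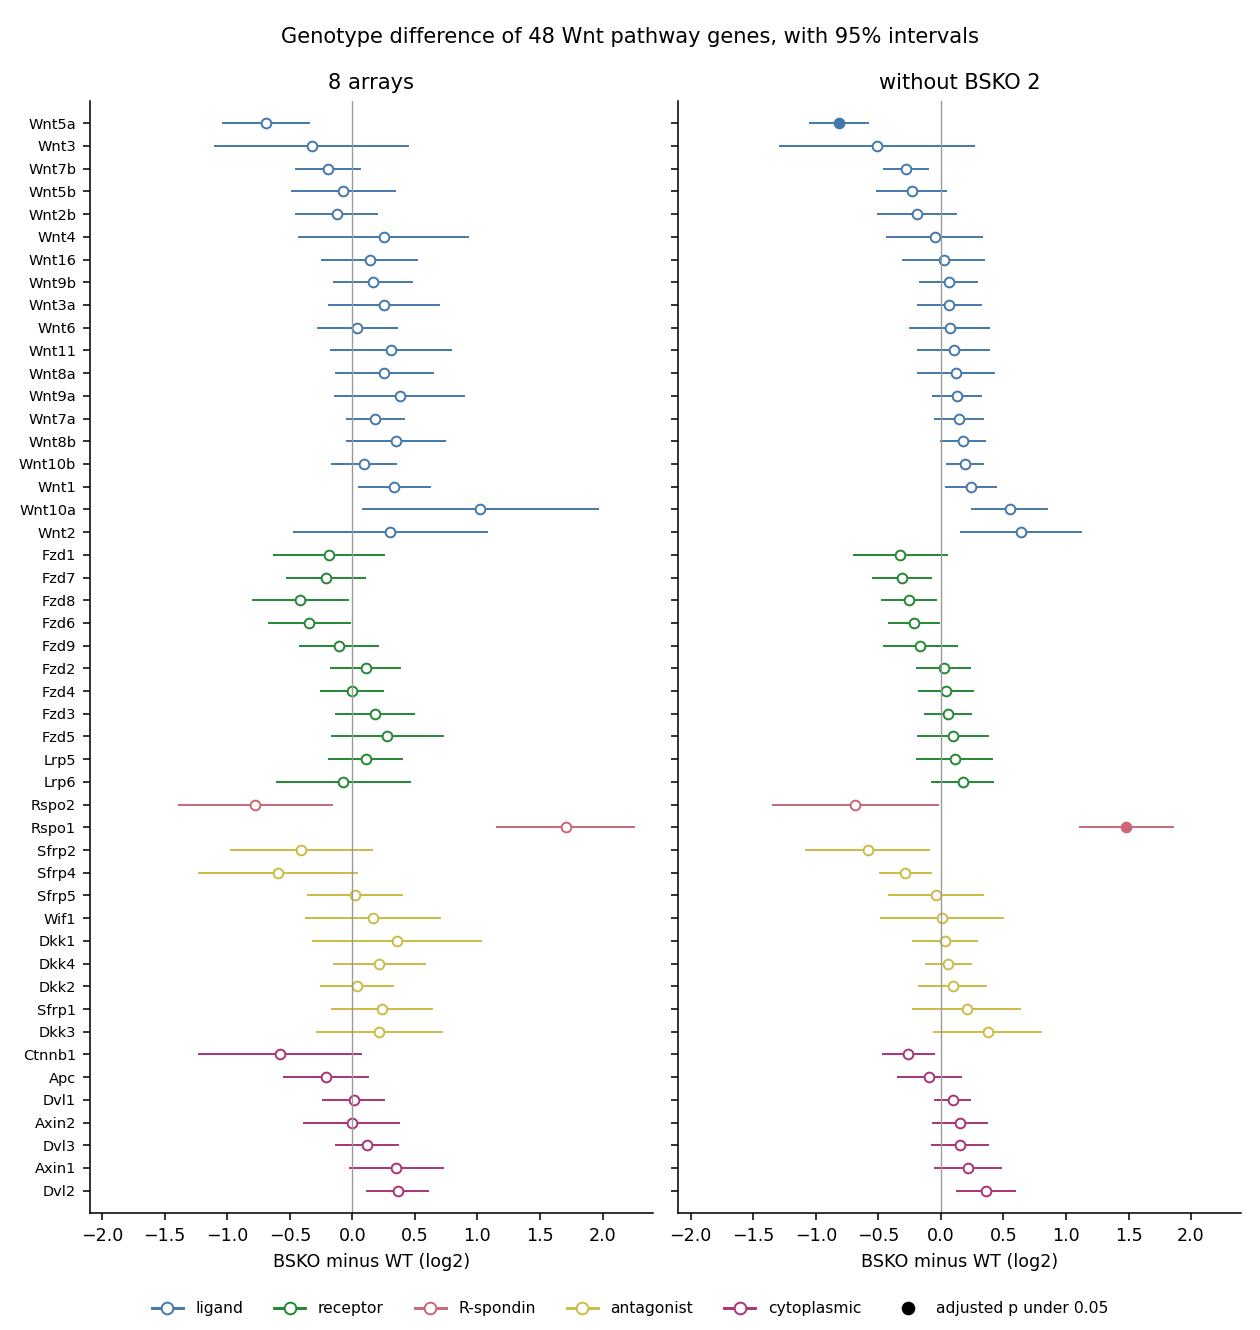
Difference between BSKO and WT (log2, mean of the probe sets of a gene) for the 48 genes, coloured by role, with 95% intervals from limma, for 8 arrays (left) and without BSKO 2 (right); filled points have an adjusted p under 0.05. Rspo1 at 1.70 and 1.48 lies farthest above 0 in each panel, and no point is filled with 8 arrays.

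Of the R-spondins, Rspo1 rose in the fit without BSKO 2, and Rspo2 did not pass the test with either set of arrays. Rspo1, whose protein binds LGR receptors and stabilises Frizzled, was measured by 1 probe set, 1449319_at. Its values were -1.15, -0.99, -0.54 and -0.64 on WT 1 to 4 and 0.85, 1.54, 0.54 and 0.56 on BSKO 1 to 4. No BSKO array came near a WT array, and the narrowest gap lay between WT 3 and BSKO 3. The WT arrays averaged -0.83 ± 0.29 and the BSKO arrays 0.87 ± 0.47 (SD, n = 4 each), a difference of 1.70 (SE 0.24, 95% interval 1.15 to 2.26), or 3.26-fold, with an adjusted p of 0.0654 by limma. Without BSKO 2 the difference was 1.48 (SE 0.16, 2.79-fold, adjusted p = 0.0157), and this call was lost without WT 2 (1.43, adjusted p = 0.0672). WT 1 and WT 2 lay below WT 3 and WT 4, and the genotypes were 2.27 apart among replicates 1 and 2 but 1.14 apart among replicates 3 and 4. Leaving out WT 1 and WT 2 as well as BSKO 2 gave 1.24 (adjusted p = 0.0822). In whole tissue a change in the number of cells that make an RNA and a change in RNA per cell cannot be told apart.

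Rspo2, a second R-spondin, gave a different picture. Probe set 1455893_at had values of 1.16, 1.05, -0.060 and 0.31 on WT 1 to 4 and of -0.17, -0.43, 0.060 and -0.10 on BSKO 1 to 4. WT 1 and WT 2 were high and the other 6 arrays lay together, WT 3 among the BSKO arrays. The difference was -0.78 (SE 0.27, adjusted p = 0.378 by limma), made of -1.41 within replicates 1 and 2 and -0.15 within replicates 3 and 4.

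The promoter of Rspo1 is shown with those of Fzd7, the receptor gene with the smallest p on a single probe set, and of Axin2, the textbook target of beta-catenin. Sequences are the 250 bases before the annotated start, from RefSeq on GRCm38.p6. The promoter table used here held 31 of the 48 genes, and Wnt5a is named only. Capitals mark a core match of the TCF/LEF factors that beta-catenin binds, searched on both strands with 4 spellings: CTTTGAA as the first, CTTTGAT as the second, CTTTGTA as the third and CTTTGTT as the last.
Rspo1, chr4:124986180-124986429, plus strand: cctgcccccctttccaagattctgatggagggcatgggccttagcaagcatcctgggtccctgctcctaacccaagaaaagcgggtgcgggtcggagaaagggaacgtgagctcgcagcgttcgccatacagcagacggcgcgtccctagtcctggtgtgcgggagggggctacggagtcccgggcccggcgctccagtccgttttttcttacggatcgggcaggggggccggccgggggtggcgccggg
Fzd7, chr1:59481897-59482146, plus strand: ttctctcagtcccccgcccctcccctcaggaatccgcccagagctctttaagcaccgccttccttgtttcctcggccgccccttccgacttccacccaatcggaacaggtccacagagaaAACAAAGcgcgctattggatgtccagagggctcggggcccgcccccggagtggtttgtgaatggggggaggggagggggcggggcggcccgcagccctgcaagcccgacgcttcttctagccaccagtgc
Axin2, chr11:108920099-108920348, plus strand: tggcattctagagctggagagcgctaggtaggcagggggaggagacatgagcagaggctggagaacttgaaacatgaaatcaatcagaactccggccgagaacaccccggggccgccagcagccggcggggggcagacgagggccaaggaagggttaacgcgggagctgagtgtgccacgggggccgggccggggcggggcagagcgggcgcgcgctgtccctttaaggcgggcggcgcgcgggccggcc
Fzd7 held 1 match, CTTTGTT on the other strand, whose printed run starts at position -130 from the start. The windows of Rspo1 and Axin2 held 0 of these letter strings. Of the 35 windows listed for the members 4 held a match, or 11.4%, beside 14.8% of all 32851 windows of the same length.

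Among the ligands Wnt5a, the best known signal of the non-canonical branch and a guide of axon growth, was lower on both of its probe sets. On 1448818_at the values were 0.50, 0.49, 0.24 and 0.25 on WT 1 to 4 and -0.37, -0.24, -0.33 and -0.60 on BSKO 1 to 4. The genotypes did not overlap, and BSKO 2 lay with the other BSKO arrays. WT averaged 0.37 ± 0.15 and BSKO -0.39 ± 0.15 (SD, n = 4 each), a difference of -0.76 (SE 0.12, 95% interval -1.03 to -0.48), or 1.69-fold lower, with an adjusted p of 0.0800 by limma. Replicates 1 and 2 alone gave -0.80, and replicates 3 and 4 gave -0.71.

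The other Wnt5a probe set, 1436791_at, had values of 0.12, 0.22, 0.010 and -0.010 in WT and of -0.47, 0.086, -0.88 and -0.89 in BSKO. Here BSKO 2 lay among the WT arrays and the other 3 BSKO arrays lay below all of them. The difference was -0.62 (SE 0.21, adjusted p = 0.370) with 8 arrays. Without BSKO 2 both probe sets passed, with -0.80 (SE 0.11, adjusted p = 0.0202) and -0.83 (SE 0.12, adjusted p = 0.0237), 1.74-fold and 1.78-fold lower. The call on 1448818_at was lost without WT 1, WT 2, WT 4 or BSKO 4 (adjusted p = 0.0603 to 0.0827, differences -0.72 to -0.85). That on 1436791_at remained in the fit without BSKO 1 (-0.97, adjusted p = 0.00845) and was lost in each of the other 6 fits that left out 1 further array (adjusted p = 0.0610 to 0.0877) and with trend and robust settings (adjusted p = 0.195). Without WT 1, WT 2 and BSKO 2 the differences were -0.68 (adjusted p = 0.161) and -0.75 (adjusted p = 0.190).

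Among the other ligands, Wnt10a, known from teeth, skin and fat, had values of -0.40, -0.45, -0.10 and -0.072 on WT 1 to 4 and of 0.39, 2.18, 0.072 and 0.43 on BSKO 1 to 4. All BSKO arrays lay above all WT arrays, BSKO 3 narrowly and BSKO 2 by far. The difference was 1.02 (SE 0.42, adjusted p = 0.439 by limma) with 8 arrays and 0.55 (SE 0.13, adjusted p = 0.0835) without BSKO 2. Wnt1, the midbrain and hindbrain organiser signal, had 0.0018, -0.34, -0.17 and -0.21 in WT and -0.0018, 0.44, 0.087 and 0.097 in BSKO, with WT 1 just above BSKO 1 (difference 0.33, SE 0.13, adjusted p = 0.423). Wnt2 split the BSKO group: its values were -0.24 to 0.030 in WT and -0.017, -0.79, 0.87 and 0.82 on BSKO 1 to 4. Its difference was 0.30 with 8 arrays (adjusted p = 0.677 on gene means) and 0.64 without BSKO 2 (adjusted p = 0.146), the latter with BSKO 3 and BSKO 4 above all WT arrays and BSKO 1 among them.

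Of the remaining 15 ligands 0 passed with either set of arrays. Without BSKO 2 the closest to the threshold were Wnt7b, a ligand for brain vessels and dendrites (-0.28, 95% interval -0.46 to -0.10, adjusted p = 0.102 on gene means), and Wnt10b (0.19, 0.045 to 0.33, adjusted p = 0.149). With 8 arrays Wnt7b had -0.20 and Wnt10b had 0.093. Wnt7a, which acts with Wnt7b on brain endothelium, had 0.14 (-0.051 to 0.34), and 0.18 with 8 arrays. Wnt3 had -0.51 with a wide interval (-1.28 to 0.27), with BSKO 3 at -1.27, and -0.33 with 8 arrays. Of the 19 ligands 14 were above 0 with 8 arrays and 13 without BSKO 2, beside 54.8% and 53.6% of all genes. In the latter fit 1 of 19, Wnt5a, passed, beside 2.15% of all genes.

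**Figure D2:**
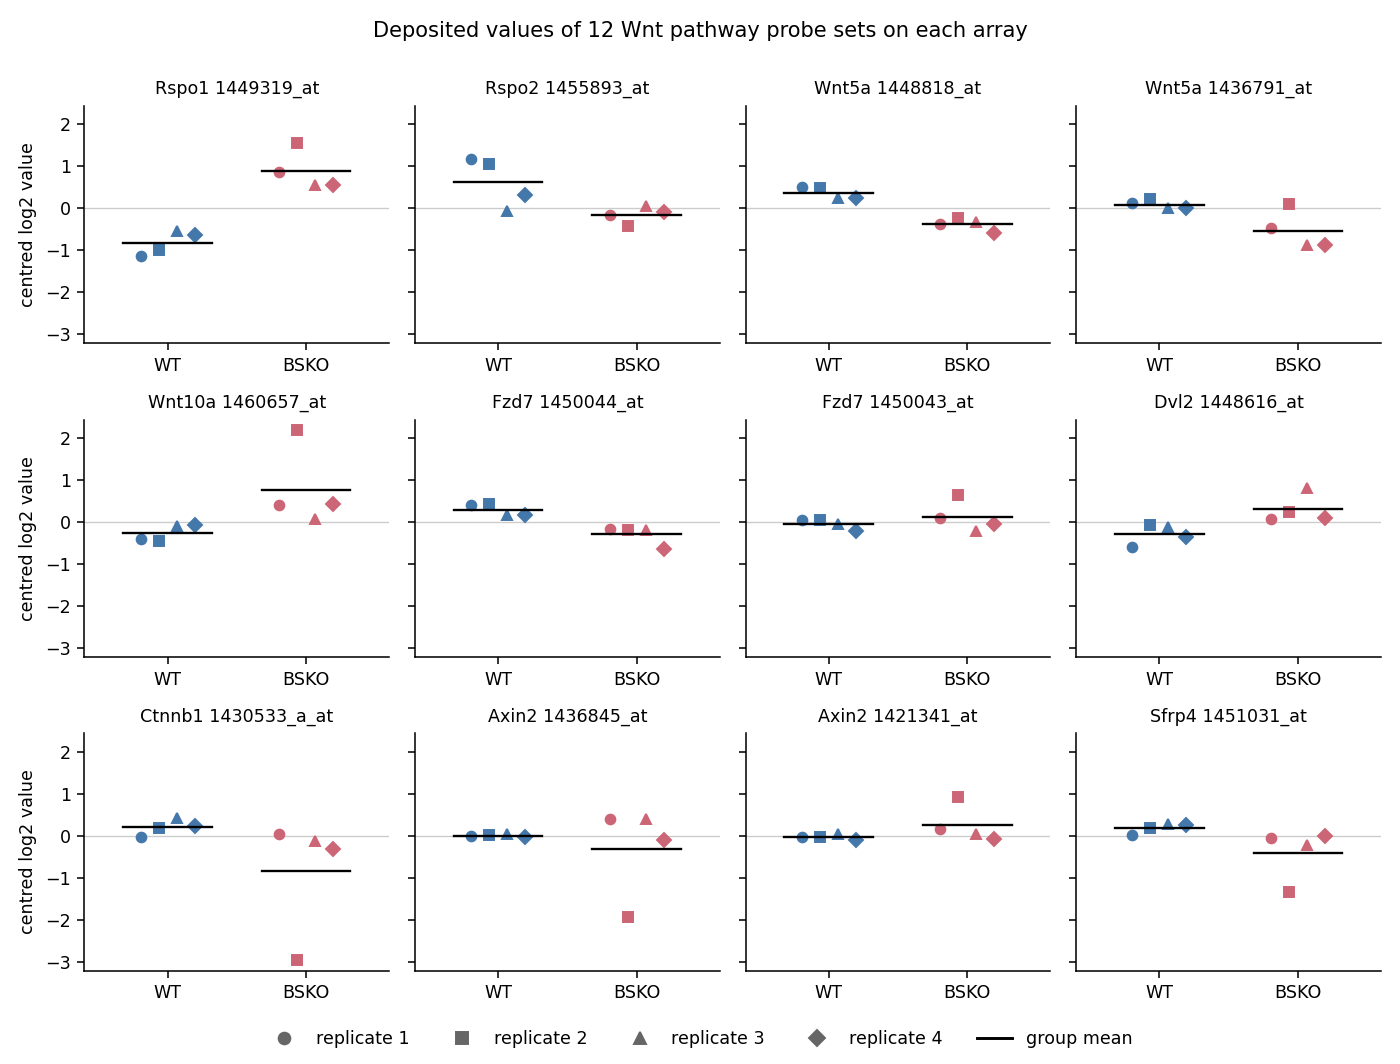
Deposited centred log2 values of 12 probe sets on the 4 WT and 4 BSKO arrays, one symbol per replicate number, with group means as lines. The genotypes do not overlap for Rspo1, Wnt5a 1448818_at, Wnt10a, Fzd7 1450044_at, Dvl2 1448616_at and Sfrp4. BSKO 2 (square) sets the BSKO mean of Wnt10a, Ctnnb1 1430533_a_at, Axin2 and Sfrp4.

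Of the 11 receptor genes 0 passed with either set of arrays (limma on gene means), with 2 at an unadjusted p under 0.05 with 8 arrays and 3 without BSKO 2, beside 12.2% and 21.2% of all genes. Their differences without BSKO 2 ran from -0.32 for Fzd1 to 0.17 for the coreceptor gene Lrp6. Fzd7, a Frizzled of progenitor cells, disagreed between its probe sets. On 1450044_at it had 0.39, 0.42, 0.16 and 0.16 on WT 1 to 4 and -0.16, -0.20, -0.19 and -0.64 on BSKO 1 to 4. These do not overlap, and the difference of -0.58 (SE 0.14, adjusted p = 0.228) was -0.61 without BSKO 2 (adjusted p = 0.0713). That difference passed without BSKO 1 as well (-0.69, adjusted p = 0.0456) and with trend and robust settings (adjusted p = 0.0482). On 1450043_at the WT arrays had -0.22 to 0.045 and the BSKO arrays -0.21 to 0.63, which overlap, and without BSKO 2 the difference was -0.019 (95% interval -0.25 to 0.21).

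Fzd6, a receptor of planar cell polarity, was lower on both probe sets, and on 1417301_at the genotypes did not overlap. There WT had 0.021, 0.13, 0.12 and 0.079, and BSKO had -0.021, -0.74, -0.12 and -0.28, so that WT 1 and BSKO 1 lay close together. Its difference was -0.38 (SE 0.16, adjusted p = 0.447) with 8 arrays and -0.23 (SE 0.080, adjusted p = 0.176) without BSKO 2. Fzd8 had 0.14, 0.21, -0.016 and 0.037 in WT and 0.016, -0.80, -0.30 and -0.21 in BSKO, with BSKO 1 between WT 3 and WT 4 (difference -0.42 with 8 arrays, adjusted p = 0.387 on gene means, and -0.26 without BSKO 2, adjusted p = 0.181). Lrp5, the other coreceptor gene, had 0.11 without BSKO 2 (95% interval -0.19 to 0.41) and 0.10 with 8 arrays.

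The 9 antagonist genes gave 0 calls with either set of arrays, with 0 at an unadjusted p under 0.05 with 8 arrays and 2 without BSKO 2 (limma on gene means), beside 12.2% and 21.2% of all genes. Sfrp4, a secreted Frizzled-like decoy, was the one whose genotypes did not overlap. It had 0.014, 0.18, 0.28 and 0.25 on WT 1 to 4 and -0.065, -1.35, -0.23 and -0.014 on BSKO 1 to 4, with WT 1 next to BSKO 4. The difference was -0.60 (SE 0.28, adjusted p = 0.485) with 8 arrays and -0.28 (SE 0.090, adjusted p = 0.149) without BSKO 2. Sfrp2 had 0.046, 0.031, -0.20 and 0.024 in WT and -0.024, 0.10, -1.0 and -0.81 in BSKO. It was thus low on BSKO 3 and BSKO 4 and not on BSKO 1 or 2 (gene mean difference -0.41 with 8 arrays, adjusted p = 0.50, and -0.59 without BSKO 2, adjusted p = 0.178). Without BSKO 1 as well it was -0.88 and passed (adjusted p = 0.0124). Dkk3, a member of the Dickkopf family that is abundant in neurons, was placed among the antagonists by its name alone. It had 0.37 without BSKO 2 (95% interval -0.054 to 0.80) and 0.22 with 8 arrays. Dkk1, which blocks the coreceptors, had 0.032 (-0.22 to 0.29) without BSKO 2 and 0.36 with 8 arrays, where BSKO 2 was at 1.29.

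In the cytoplasm Dvl2, a Dishevelled that relays the signal from Frizzled, came closest to the threshold on gene means (0.36, adjusted p = 0.260 with 8 arrays and 0.108 without BSKO 2). On 1448616_at it had -0.60, -0.063, -0.13 and -0.35 in WT and 0.063, 0.23, 0.80 and 0.091 in BSKO. All BSKO arrays lay above all WT arrays, and WT 1 and BSKO 3 set the spread. The difference was 0.58 (SE 0.19, adjusted p = 0.358) with 8 arrays and 0.60 (adjusted p = 0.166) without BSKO 2. On the other Dvl2 probe set it was 0.14 and 0.11, and for Dvl1 and Dvl3 it was 0.093 and 0.15 without BSKO 2 and 0.009 and 0.12 with 8 arrays.

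Axin1, the scaffold of the destruction complex, did not overlap on 1426967_at, with -0.12, -0.18, -0.073 and -0.027 in WT and 0.027, 0.16, 0.40 and 0.049 in BSKO (difference 0.26, SE 0.11, adjusted p = 0.454). On its other probe set, 1426966_at, BSKO 1 (0.050) and BSKO 4 (-0.14) lay among the WT arrays. Apc, the partner scaffold, had gene means of 0.069, 0.011, 0.14 and 0.081 in WT and -0.23, -0.47, 0.24 and -0.064 in BSKO. The genotypes overlapped on each of its 3 probe sets, with differences of -0.064 to -0.11 without BSKO 2 and of -0.14 to -0.31 with 8 arrays. Axin2 gave no direction. Its gene means were -0.024, -0.011, 0.032 and -0.065 in WT and 0.28, -0.50, 0.21 and -0.087 in BSKO, which overlap. They differed by -0.006 with 8 arrays (adjusted p = 0.989) and by 0.15 without BSKO 2 (95% interval -0.063 to 0.37, adjusted p = 0.382), and on BSKO 2 its probe sets were 0.93 and -1.93.

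Ctnnb1, the gene of beta-catenin, differed among its 3 probe sets. On 1450008_a_at it had 0.023, 0.073, 0.23 and 0.17 in WT and -0.023, -1.39, -0.30 and -0.39 in BSKO, which do not overlap. The difference was -0.65 (SE 0.27, adjusted p = 0.439) with 8 arrays and -0.36 (SE 0.10, adjusted p = 0.119) without BSKO 2. Without BSKO 1 as well it was -0.47 and passed (adjusted p = 0.0348). On 1430533_a_at the difference was -1.04 with 8 arrays (adjusted p = 0.536) and -0.34 without BSKO 2 (adjusted p = 0.192), with BSKO 1 (0.036) above WT 1 (-0.036). On 1420811_a_at all arrays lay between -0.13 and 0.062, BSKO 2 (0.059) included, and the difference without BSKO 2 was -0.085 (95% interval -0.24 to 0.067).

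Probe sets of the same gene parted on BSKO 2. For the 18 member genes with more than 1 probe set, the median gap between the highest and the lowest was 0.809 on BSKO 2, and on the other 7 arrays it ran from 0.10 to 0.231. Over all 4956 such genes BSKO 2 had 0.815 and the rest 0.111 to 0.252. The gap was over 1 for 7 of the 18 genes on BSKO 2 and for 0 of them on any other array. It was widest for Fzd2 (3.59), Fzd3 (3.14), Ctnnb1 (3.01), Axin2 (2.86) and Sfrp1 (2.59). For Fzd6, Wnt7b, Dvl2 and Dvl1 it was 0.19 or less. The part of the RNA quality of that array in these gaps was not tested.

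**Figure D3:**
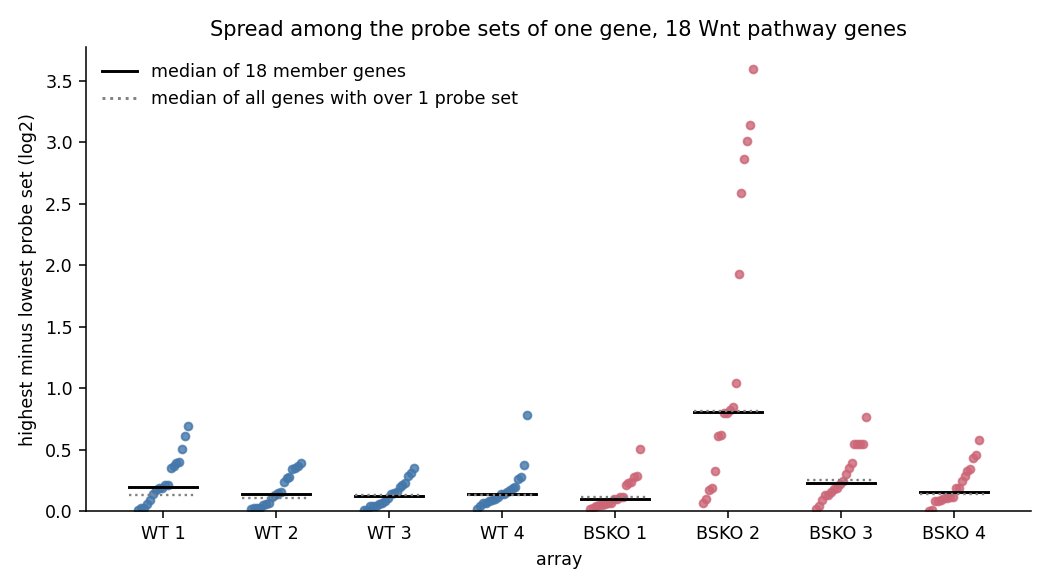
Gap between the highest and the lowest probe set of a gene (log2) on each array for the 18 genes with more than 1 probe set, with their median (black) and that of all 4956 such genes (dotted). BSKO 2 has a median of 0.809 and 7 genes over 1, and every other array has 0 genes over 1.

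Beyond the members, 47 of 60 listed genes of the pathway were measured: secretion factors, other receptors, destruction complex kinases, nuclear partners, polarity genes and known targets. With 8 arrays 0 of the 47 passed (limma on gene means), beside 0.0726% of all genes, and 4 had an unadjusted p under 0.05, beside 12.2%. Without BSKO 2 the latter were 10 of 47, beside 21.2%. The median difference was 0.017 with 8 arrays and 0.037 without BSKO 2. In the fit without BSKO 2, 0 rose and 2 fell by adjusted p, Gpc4 and Wls, or 2 of 47 beside 1.39% of all genes on the lower side. Wls, which carries Wnt proteins to the cell surface, had 0.25, 0.25, 0.18 and 0.11 on WT 1 to 4 and -0.095, -1.21, -0.22 and -0.42 on BSKO 1 to 4, with no overlap. Its difference was -0.44 without BSKO 2 (SE 0.087, adjusted p = 0.0488) and -0.68 with 8 arrays (adjusted p = 0.304). Gpc4, a glypican that binds Wnt ligands at the cell surface, had 0.35, 0.27, -0.098 and 0.098 in WT and -0.53, 0.66, -0.56 and -1.04 in BSKO. BSKO 2 lay above all WT arrays and the other 3 below, with -0.87 without BSKO 2 (SE 0.15, adjusted p = 0.0363) and -0.53 with 8 arrays (adjusted p = 0.504). Leaving out 1 further array ended the call of either gene (adjusted p up to 0.147 for Wls and 0.112 for Gpc4), except BSKO 1. Trend and robust settings also ended it for Gpc4 (adjusted p = 0.129), as leaving out cross-hybridising probe sets did for Wls (adjusted p = 0.0503).

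Genes known as targets of beta-catenin, a selection made after their values were seen, lay on both sides of 0. Without BSKO 2 the differences were 0.25 for Sp5 (adjusted p = 0.262), 0.33 for Ccn4 (0.371), 0.081 for Nkd1 (0.782), -0.14 for Lef1 (0.547), -0.15 for Lgr5 (0.439), -0.23 for Ccnd1 (0.140), -0.61 for Myc (0.0666) and -0.71 for Cd44 (0.0672), none past the threshold. With 8 arrays they were 0.28 for Sp5, 0.27 for Ccn4, 0.12 for Nkd1, -0.17 for Lef1, -0.38 for Lgr5, -0.058 for Ccnd1, -0.31 for Myc and -1.05 for Cd44, with adjusted p from 0.276 to 0.875. Of these the genotypes of Cd44 did not overlap over the 8 arrays. Among all 47 measured genes of the list 3 did not overlap, all lower, beside 6.66% of all probe sets on that side. On BSKO 2 Myc (0.70) and Ccnd1 (0.55) lay above every WT array. Frzb, a secreted antagonist related to the SFRP proteins, had 0.18 to 0.25 in WT and -1.14, -2.39, -0.70 and -0.083 on BSKO 1 to 4, without overlap (-1.28 with 8 arrays, adjusted p = 0.300, and -0.85 without BSKO 2, adjusted p = 0.0848).

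Median values of 3 marker lists set WT 1 and WT 2 apart from WT 3 and WT 4, and did not overlap between the genotypes. By limma on gene means 0 striatal and 0 dentate gyrus markers passed with either set of arrays. Of 12 striatal markers 7 were measured, with list medians of -1.94, -1.79, 0.010 and -0.080 for WT 1 to 4 against 0.060, 0.14, 1.12 and 1.03 for BSKO 1 to 4. A difference above 0 was found for 7 of 7, beside 54.8% of all genes with 8 arrays. For the 9 meningeal markers the medians were 0.75, 0.78, 0.16 and 0.19 in WT against -0.61 to -0.22 in BSKO. All 9 were below 0, and 3 passed the test without BSKO 2, beside 1.39% of all genes on the lower side. For the 5 measured dentate gyrus markers of 6 they were 0.72, 0.77, 0.040 and 0.010 in WT against -0.35 to -0.080 in BSKO, and 5 of 5 were below 0. Gene by gene, the genotypes did not overlap for 4 of 7 striatal markers, beside 5.67% of all probe sets on the higher side. On the lower side it was 8 of 9 meningeal and 2 of 5 dentate gyrus markers, beside 6.66% of all probe sets. On centred values no marker has a level, so none can be called absent. Wnt5a, Fzd7 and Rspo2 were highest on WT 1 and WT 2, as were the last 2 of these lists, and Rspo1 was lowest there, as was the striatal list. The part of region or tissue content in the differences of these genes was not tested.

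Medians of the remaining lists overlapped between the genotypes, and in each WT 1 and WT 2 lay above WT 3 and WT 4. The 8 measured choroid plexus markers of 10 had medians of 0.050, 0.060, -0.050 and -0.090 on WT 1 to 4. On BSKO 1 to 4 they were 0.31, 0.13, -0.020 and -1.92. The 6 measured thalamic markers of 7 had medians of 0.10, 0.21, -0.090 and -0.080 in WT and 0.44, 0.14, -1.36 and -0.42 in BSKO. For the 6 measured endothelial markers of 7 they were 0.10, 0.030, 0.020 and -0.030 in WT and -0.17 to 0.020 in BSKO. That list, too, was highest on WT 1 and WT 2, within a narrow range. Single endothelial markers ranged wider, with Pecam1 at -1.0 and Cldn5 at 0.86 on BSKO 2. Pecam1 and Tek, 2 of the 6, were lower in BSKO without overlap, beside 6.66% of all probe sets on that side. The gaps were narrow, from 0.015 on WT 4 to -0.015 on BSKO 3 for Pecam1 and from 0.013 on WT 2 to -0.013 on BSKO 3 for Tek. Neither passed with 8 arrays (adjusted p = 0.418 and 0.536 by limma on gene means).

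**Figure D4:**
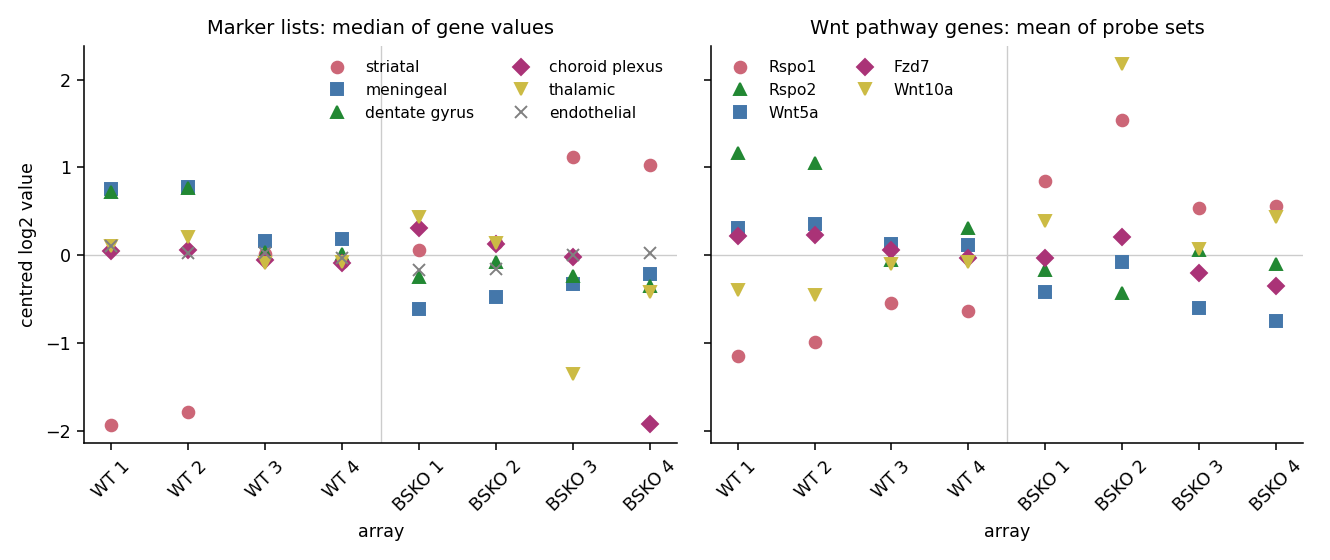
Centred log2 values on each array: medians of 6 marker lists (left) and means over probe sets of 5 Wnt pathway genes (right). Striatal markers run from -1.94 on WT 1 to 1.12 on BSKO 3, and Rspo1 from -1.15 on WT 1 to 1.54 on BSKO 2.

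The genes whose values were most like those of Rspo1 over the 7 arrays without BSKO 2 were Mcm7, a subunit of the replicative helicase (Pearson r = 0.985), Gramd1a (0.983), Miip (0.983), Cish, a cytokine-induced inhibitor of STAT signalling (0.981), and Epha8, an ephrin receptor (0.979). They were picked as the 5 highest among all genes outside the members, and all 7 points carry the genotype difference of Rspo1, so the values describe the likeness and test nothing. Their own differences without BSKO 2 were 0.31, 0.28, 0.35, 0.66 and 0.70, smaller than the 1.48 of Rspo1.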

How the data were processed

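RMA was the authors' summary method for the 8 arrays according to the submitters' processing notes, which give no version. Values in the deposited table are on a log2 scale, and 22689 of its 22690 probe sets have a median within 1e-05 of 0, a centring that no label records. The 64 control probe sets were left out and 22626 tested with no filter, since centred values carry no brightness. Of these 20380 had 1 gene symbol, 691 several and 1555 none, from the platform annotation, and updating by Entrez number (20351 matched, GRCm38.p6) changed none. Members, lists and the rule for named genes were chosen with earlier results of these data known.

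The genotype contrast was fitted with lmFit and eBayes of limma 3.58.1 (R 4.3.3, two-sided, no covariate), per probe set and per gene (mean of its probe sets), with Benjamini-Hochberg adjustment over all features and a threshold of 0.05. SE and intervals are limma's. The fit per probe set was tested on simulated normal values with the same spread on every array, so the wider spread of BSKO 2 was not simulated. Gene means and the alternatives below were not simulated either. Values on every array are given for members called or not overlapping between genotypes, for the 2 of each role with the smallest p, and for Axin2, Apc and Ctnnb1. Wnt2 was added after its values were seen, as were the members given by difference alone. Of the other pathway genes the rule named those called, and Frzb and the target genes were likewise added. Alternatives were quantile normalization, centring of arrays, leaving out cross-hybridising probe sets (suffix _x_at or _s_at), array weights, eBayes with trend and robust settings, the replicate number as a block, replicates 1 and 2 against 3 and 4 as a term, each array left out, and a threshold of 0.10. Leaving out WT 1 and WT 2 together was added after seeing the data. Figures were drawn with matplotlib 3.10.9.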

Additional observations from a re-analysis of the deposited data

Results flagged for a closer look

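Single arrays lay far from the other 3 of their genotype for 6 of 50 groups of 4 arrays (25 probe sets of the named members), where chance gives about 1 in 20, and 3 of the 6 were BSKO 2. On BSKO 2, Ctnnb1 1430533_a_at was -2.96 (other BSKO arrays -0.32 to 0.036), Sfrp4 1451031_at was -1.35 (-0.23 to -0.014) and Wnt10a 1460657_at was 2.18 (0.072 to 0.43). On BSKO 4, Fzd7 1450044_at was -0.64 (-0.20 to -0.16). Among WT arrays, Sfrp2 1448201_at was -0.20 on WT 3 (0.024 to 0.046 on the others) and Apc 1420957_at was 0.21 on WT 1 (-0.0056 to 0.028).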

How the results depend on the processing

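With 8 arrays, where 0 members passed, array weights called 12 member probe sets (2617 or 11.6% of all) and 8 genes (9.96% of all). Quantile normalization called 4 probe sets (678 or 3.0% of all) and 4 genes (3.41% of all). A term for replicates 1 and 2 against 3 and 4 called 1 (0.371% of all) and 2 (0.629% of all). Trend and robust settings called 2 (0.477% of all) and 1 (0.387% of all). A threshold of 0.10 gave 2 and 1, and for this threshold, here and below, the share of all features was not counted. Leaving out each array gave 0 to 3 probe sets and 0 to 2 genes, the 3 and the 2 without BSKO 2 (1.63% and 2.15% of all). Without BSKO 2, where 3 probe sets and 2 genes passed, array weights called 14 (3005 or 13.3% of all) and 9 (11.9% of all). A threshold of 0.10 gave 5 probe sets. The fit without WT 1 and WT 2 gave 0 and 0, as over all 22626 probe sets and 12393 genes. Leaving out 1 further array gave 0 to 9, beside 0.084% to 4.72% of all probe sets, and 0 to 4, beside 0.105% to 6.57% of all genes. Of the other pathway genes, with 8 arrays (0), array weights called 4 (9.96% of all genes) and quantile normalization 3 (3.41%). Leaving out each array gave 0 to 2 of them, the 2 without BSKO 2 (2.15%). Without BSKO 2 (2), array weights called 5 (11.9%) and the term for replicates 1 and 2 against 3 and 4 called 4 (4.56%). Trend and robust settings called 1 (1.9%), as did leaving out cross-hybridising probe sets (1.99%). A threshold of 0.10 gave 5, the fit without WT 1 and WT 2 gave 0, and leaving out 1 further array 0 to 3 (0.105% to 6.57%). The causes were not tested. Array weights gave BSKO 2 a weight of 0.0456 and BSKO 4 one of 3.70, and fits with fewer arrays have a larger error.

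The Axin2 mean turned to 0.028 with array weights and 0.084 with quantile normalization, and ran from -0.11 to 0.15 over single arrays left out. The Apc mean without BSKO 2 ran from -0.22 to 0.012. Of 594 values of named genes under an alternative, 515 kept direction and call, 37 gained the call, 36 lost it and 6, those of Axin2 and Apc, turned. All lost calls were of the results called without BSKO 2, since the others had no call to lose. Rspo1 lost 3 and kept 13, and the Wnt5a probe sets lost 6 and kept 10 (1448818_at) and lost 9 and kept 7 (1436791_at). Gpc4 and Wls each lost 9 and kept 7.

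With the replicate number as a block, 0 member probe sets, genes and other pathway genes were called with either set of arrays. This fit called 0 of all 22626 probe sets with either set. Of all 12393 genes it called 0 with 8 arrays and 4 without BSKO 2. Without BSKO 2 it gave Rspo1 1.43 (adjusted p = 0.107) and Wnt5a -0.76 and -0.78 (adjusted p = 0.102 and 0.0984). Whether the numbers pair the samples cannot be settled from these values. The deviations of same-numbered arrays from their group means correlated at 0.086, 0.056, 0.14 and 0.13, and WT 1, WT 2 and WT 3 correlated best with another number. Across genotypes the correlations were 0.056 to 0.088 within replicates 1 and 2 and 0.031 to 0.165 within replicates 3 and 4. Between replicates 1 and 2 and replicates 3 and 4 they were -0.147 to -0.037.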
